A study of Mus musculus with 24 samples.

Results

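The comparison was between mouse intestinal organoids labelled as lacking both Cdk8 and Cdk19 (double knockout, 3 libraries) and organoids labelled as lacking Cdk8 alone (Cdk8-/-, 3 libraries), which make up 6 of the 24 libraries of the series. It addressed what the loss of Cdk19 adds once Cdk8 is gone. Members were taken by genotype label only, so no measured value chose them. Organoids are epithelial cultures grown from intestinal crypts, and all RNA in these libraries was selected by poly(A) tail and sequenced as single-end reads. The Cdk8-/- organoids came from Cdk8 lox/lox mice carrying Villin-CreERT2, a tamoxifen-activated Cre recombinase driven in the intestinal epithelium, and were treated for 7 days with 600 nM 4-hydroxytamoxifen to delete Cdk8. The double knockout organoids had the same Cdk8 deletion and the same treatment. They had in addition been given Cas9 and a guide against exon 1 of Cdk19 by lentivirus, selected with puromycin and expanded from single picked organoids. The comparison therefore differed in viral transduction, selection and clonal expansion as well as in Cdk19, and these cannot be told apart. The labels call the libraries biological triplicates without saying whether those of the double knockout came from separate clones, so the p-values measure the spread between these libraries. Wild-type (WT) and Cdk19-/- organoids, 3 libraries each, belonged to the same experiment, and the labels give the 4-hydroxytamoxifen treatment for them too. Another 12 libraries came from organoids given the CDK8/19 inhibitor Senexin B (SnxB) or its solvent DMSO for 16 h or 24 h.

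CDK8 and CDK19 are closely related kinases that pair with cyclin C and, together with MED12 and MED13 or their paralogs, form the kinase module of Mediator, the complex that connects transcription factors to RNA polymerase II. The module binds Mediator reversibly and can both restrain and promote transcription. In the intestinal epithelium, stem and cycling progenitor cells sit in the crypt and give rise to absorptive enterocytes and to the secretory goblet, Paneth, enteroendocrine and tuft cells.

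The 6 libraries held 14990701 to 15473180 reads assigned to genes, so depth differed little. The libraries carried no strand information, and genes that overlap on opposite strands or share reads with close copies are uncertain. A characteristics field of the genotype libraries names 4T1, a mouse mammary carcinoma line, while their tissue field names intestinal organoids. The 15 intestinal epithelial markers summed to 12797 to 15041 CPM (counts scaled to a common library total), and 5 of 10 mammary markers, including the milk protein genes Csn2, Wap and Lalba and the keratin gene Krt14, had no count in any of the 6 libraries. The sum of the mammary list was 34.2 to 54.0 CPM in Cdk8-/- and 67.6 to 106 CPM in double knockout organoids, and its part in the results was not tested. Of 11 fibroblast and muscle markers, 8 had at most 10 counts in every library, and of 10 leukocyte markers, 5 did. Fibroblast and muscle markers summed to 115 to 139 CPM in Cdk8-/- and 138 to 213 CPM in double knockout libraries, and colon markers to 112 to 154 and 147 to 257 CPM. Leukocyte markers summed to 17.4 to 18.7 and 16.9 to 18.5 CPM, and gastric markers to 60.3 to 168 and 51.8 to 126 CPM. The part of these lists in the results was not tested. Median levels by chromosome stayed within -0.07 and 0.05 (log2) of the mean over the 6 libraries on all 20 chromosomes with enough genes.

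The targeted genes were examined before the others. Cdk19 (chr10:40339564-40483818, + strand) had 702, 646 and 582 normalised counts in the Cdk8-/- libraries and 403, 355 and 773 in the double knockout libraries. The libraries labelled double knockout replicates 1 and 2 lay below every Cdk8-/- library, whereas the library labelled double knockout replicate 3 lay above all 3 of them and above the WT range of 711 to 749. The difference between the groups missed the threshold (log2 fold change -0.33 ± 0.27 SE, double knockout minus Cdk8-/-, adjusted p = 0.587, edgeR), and without replicate 3 the value was -0.75 (adjusted p = 0.186). One Cdk19-/- library was likewise at 729, against 420 and 423 in the others. Counts summed over a gene do not show a small edit in 1 exon, so this transcript level is no direct test of the mutation. The paper, however, reports a loss of Cdk19 mRNA in the edited organoids by qPCR. Double knockout replicate 3 and that Cdk19-/- library showed no such loss in these counts. Whether they carried the mutation was not tested. The DESeq2 counts of gene lists with calls are given also without double knockout replicate 3 where they change. Cdk19 itself passed DESeq2 without it. Cdk8 had 685, 857 and 634 normalised counts in Cdk8-/- and 707, 659 and 645 in double knockout organoids, and the gene total does not reveal the deleted exon either. The CreERT2 transgene, read through the Esr1 part of its sequence, was at 286 to 312 normalised counts in Cdk8-/- and at 298 to 393 in double knockout libraries. Its log2 level, centred on the mean over 12 libraries, was 2.97 to 3.42 in Cdk8-/- and double knockout libraries. In WT and Cdk19-/- libraries it was -4.19 to -2.34.

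No other subunit of the kinase module was called. Ccnc, encoding cyclin C, had 409, 440 and 399 normalised counts in Cdk8-/- and 478, 449 and 444 in double knockout organoids (log2 fold change 0.14 ± 0.10 SE, adjusted p = 0.521, edgeR). Log2 fold changes of Med12, Med13 and Med13l were 0.16, 0.30 and 0.14, with adjusted p between 0.358 and 0.57 in edgeR. Med12l had at most 7 reads in any of the 6 libraries and was not tested. Of the 26 core Mediator subunits, none passed the test, and the median log2 fold change was -0.13, or -0.08 without double knockout replicate 1. In 9 of them every double knockout library lay below every Cdk8-/- library, against 8.04% of all genes.

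**Figure D1:**
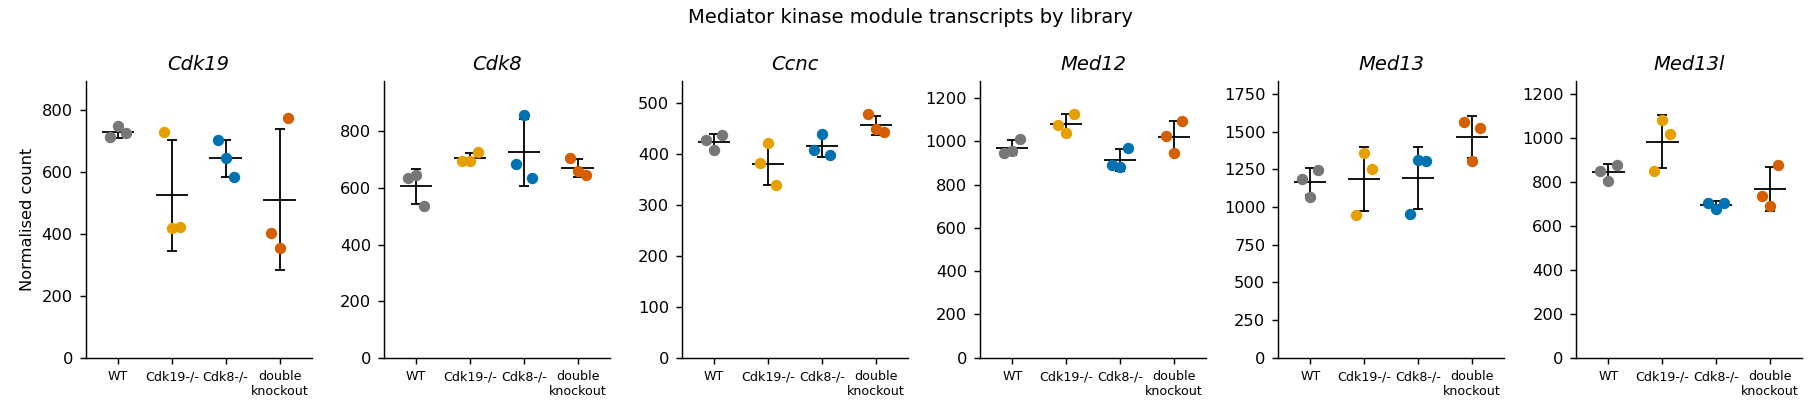
Normalised counts (y axis, from 0) of the 6 tested kinase module genes in each of 12 libraries by genotype; points are libraries, horizontal lines means and bars SD (n = 3). Cdk19 was at 403, 355 and 773 in the double knockout libraries and at 582 to 702 in Cdk8-/-, and the other subunits showed overlapping or nearly overlapping groups.

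Few genes differed between double knockout and Cdk8-/- organoids by edgeR. Among 15602 genes tested, edgeR called 4 at an adjusted p under 0.05 (0.0256%), all downregulated in the double knockout: Mmp14, Tnfrsf11b, Olfr1419 and Slc25a13. No gene was called upregulated. At an unadjusted p under 0.05 there were 2417 genes (15.5%), 1081 of them higher. The number of calls depended on the tool: DESeq2 called 407 genes (2.96%), 209 higher and 198 lower, and limma-voom with library weights called 377 (2.42%). It also depended on single libraries. Without Cdk8-/- replicate 3, edgeR called 839 genes (5.28%), 328 higher and 511 lower (3.22%), and without double knockout replicate 3 it called 7 (0.0441%). The 4 genes were called by all 3 tools in the fit of 12 libraries. In an edgeR fit of the 6 libraries alone none was called, with adjusted p of 0.106 for Mmp14 and Tnfrsf11b, 0.111 for Olfr1419 and 0.058 for Slc25a13, and 1603 genes had an unadjusted p under 0.05. The DESeq2 calls below carry the dependence on single libraries. The median log2 fold change of all genes was -0.01.

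Mmp14 (chr14:54431612-54445364, + strand) encodes the membrane-anchored metalloproteinase MT1-MMP, which cleaves collagen and activates pro-MMP2. It had 449, 302 and 521 normalised counts in the Cdk8-/- libraries and 18.4, 0 and 2.91 in the double knockout libraries. The transcript was thus close to absent in all 3 double knockout libraries and present in the other genotypes, with 518, 601 and 1090 in WT and 510, 587 and 541 in Cdk19-/- organoids. The log2 fold change was -5.91 ± 0.56 SE (adjusted p = 0.00298, edgeR), and in the fit of all genotypes the call held when any 1 of the 6 libraries was left out, with adjusted p between 0.0013 and 0.0219. Summed over libraries, 1285 reads in Cdk8-/- stood against 21 in the double knockout, a 62.1-fold difference with a 95% exact interval of 40.4 to 101 that covers counting error only. With Cdk8 present, the log2 fold change of Mmp14 in Cdk19-/- against WT organoids was -0.43 (adjusted p = 0.759, edgeR). Both contrasts set Cdk19-targeted against untargeted organoids, so they hold transduction, selection and clonal expansion as well as the mutation, and their difference was -5.47 ± 0.69 SE (adjusted p = 0.0241, edgeR interaction term), one of 4 genes with such a difference (0.0256%). That difference also set organoids with a high CreERT2 signal against organoids with a low one. Cdk8 loss and Cre cannot be told apart there. The 16 tested genes starting within 200 kb had log2 fold changes of -0.95 to 0.78, and none was called. Of 18 tested matrix metalloproteinase and inhibitor genes, Mmp14 alone passed the test, against 0.0256% of all genes, and the list median was -0.05, or -0.21 without Cdk8-/- replicate 2. The next members by p were Mmp23, at 10.1, 15.3 and 17.3 against 19.4, 29.5 and 31.1 normalised counts, and Adam9, at 749, 874 and 901 against 1019, 969 and 970 (adjusted p = 0.233 and 0.289, edgeR).

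Tnfrsf11b (chr15:54250619-54278484, - strand) encodes osteoprotegerin, the secreted decoy receptor for RANKL. Its normalised counts were 211, 86.7 and 195 in Cdk8-/- and 13.3, 15.8 and 23.3 in double knockout organoids. Every double knockout library lay below every Cdk8-/- library, and Cdk8-/- replicate 2 was the lowest of its group. The log2 fold change was -3.22 ± 0.35 SE (adjusted p = 0.0067, edgeR), a 9.33-fold reduction, and leaving out each library in turn gave adjusted p from 0.00042 to 0.0487. WT organoids had 96.6, 84.2 and 65.8, with 1 library within the Cdk8-/- range, and Cdk19-/- organoids 45.3, 58.3 and 41.5. The difference between the contrasts without and with Cdk8 was -2.46 and missed the threshold (adjusted p = 0.0678, edgeR). No other tested gene started within 200 kb.

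Olfr1419 (chr19:11868613-11875106, - strand) belongs to the olfactory receptor family. It was weakly expressed, with 16.1, 26.5 and 18.2 normalised counts in Cdk8-/- and 1.02, 0 and 0 in double knockout libraries. A single read in the double knockout stood against 61 in Cdk8-/-, a 61.9-fold difference with a 95% exact interval of 10.7 to 2484 for counting error alone (adjusted p = 0.0117, edgeR). Without double knockout replicate 2 the call was lost (adjusted p = 0.0547). In WT the counts were 29.2, 28.8 and 50.1 and in Cdk19-/- 67.5, 70 and 51.3, and the difference between the contrasts without and with Cdk8 was called (adjusted p = 0.0241). The 5 tested neighbours within 200 kb had log2 fold changes between -0.17 and 0.14.

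Slc25a13 (chr6:6041218-6217173, - strand) encodes citrin, the mitochondrial aspartate-glutamate carrier of the malate-aspartate shuttle. Normalised counts were 916, 885 and 855 in Cdk8-/- and 486, 463 and 461 in double knockout organoids, with little spread in either group. The reduction was 1.88-fold (log2 fold change -0.91 ± 0.12 SE, adjusted p = 0.0232, edgeR). The fold change stayed between -0.93 and -0.89 in every leave-one-out fit, but the gene was called in 1 of those 6, with adjusted p from 0.0107 to 0.185 and 0.0783 without double knockout replicate 3. WT organoids had 983, 1023 and 953 and Cdk19-/- organoids 780, 1053 and 1152. Among 39 mitochondrial Slc25 carriers, no other member was called in edgeR on all libraries, and the list median was 0.05, or 0.09 without double knockout replicate 3. DESeq2 called Slc25a13 alone in the list, and 1 member higher and 1 lower without that library, against 1.18% and 0.852% of all genes. Slc25a24 was at 1800, 1837 and 2630 against 2930, 2740 and 2792 normalised counts (adjusted p = 0.178 in edgeR and 0.0695 in DESeq2), and it passed limma-voom (adjusted p = 0.0365) and, without Cdk8-/- replicate 3, edgeR (adjusted p = 0.00961). Slc25a4 was at 1211, 1323 and 1097 against 816, 1030 and 515 (adjusted p = 0.186 in edgeR and 0.0825 in DESeq2). Of 19 malate-aspartate shuttle and urea cycle genes, Slc25a13 alone was called, against 0.0256% of all genes in edgeR, and the median was 0.08, but -0.08 without Cdk8-/- replicate 3, -0.04 without double knockout replicate 1 and 0.21 without double knockout replicate 3.

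Rec8 (chr14:55618037-55625395, + strand), the meiotic cohesin subunit, is expressed in germ cells. It had 133, 89.8 and 151 normalised counts in Cdk8-/- and no read in any double knockout library. With a floor of 3 counts for the whole group, its transcript was at least 127-fold lower in the double knockout. It missed the edgeR threshold (adjusted p = 0.0841) and passed that of DESeq2 (adjusted p = 0.00418). Rec8 was low elsewhere too, at 21.1, 31.8 and 0 in WT and at most 2.96 in Cdk19-/- organoids, so the Cdk8-/- libraries were the high ones. It lies 1172673 bp from Mmp14 on the same chromosome. The 33 genes between them whose mean normalised count reached 50 had a median log2 fold change of 0.03, ranging from -0.38 to 1.09.

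**Figure D2:**
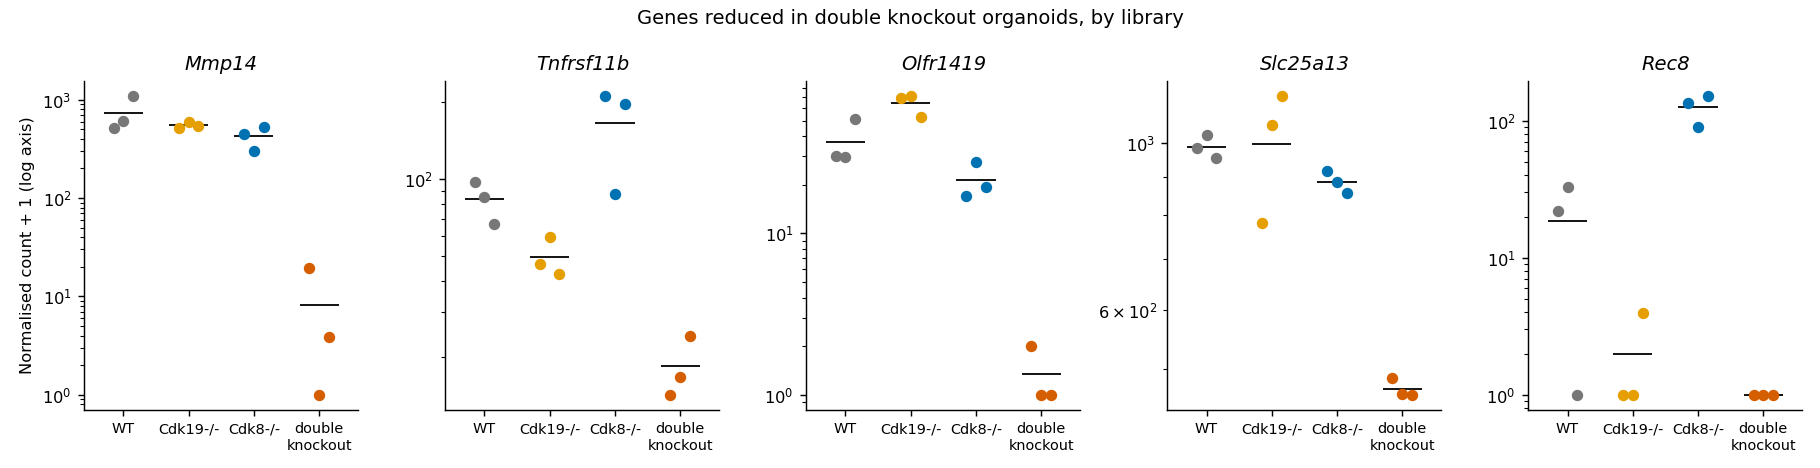
Normalised count + 1 (log axis, a scale of its own for each gene) of the 4 called genes and Rec8 in 12 libraries by genotype; points are libraries and lines means of 3. In each gene the 3 double knockout libraries sit below all 3 Cdk8-/- libraries, and Mmp14 is at 302 to 521 in Cdk8-/- and at most 18.4 in the double knockout.

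Further genes lay lower in the double knockout without passing the edgeR threshold, and they were chosen among genes whose groups did not overlap. Ghrl, encoding ghrelin, had 529, 237 and 236 normalised counts in Cdk8-/- and 33.7, 76.8 and 36.9 in double knockout organoids (adjusted p = 0.0715 in edgeR and 2.19e-08 in DESeq2). Gpc3, encoding the cell surface proteoglycan glypican 3, had 413, 232 and 289 against 77.5, 17.7 and 14.6 (adjusted p = 0.0842 in edgeR). Cybrd1, the duodenal ferric reductase, was at 1082, 292 and 421 against 82.6, 17.7 and 9.71, and Nkx6-3, a homeobox factor, at 106, 202 and 37.5 against 6.12, 0.985 and 4.86. Both varied widely within Cdk8-/- and neither was called in edgeR (adjusted p = 0.255 and 0.24). Smaller differences with tight replicates were seen in Clca3b (18767, 15235 and 15005 against 9907, 10544 and 9390), a member of the calcium-activated chloride channel regulator family, and in Prss32, a serine protease (3825, 3695 and 3768 against 2504, 2282 and 1838). Slit2, a Robo ligand, and Dpysl5 had log2 fold changes of -0.84 and -1.28, Marcksl1 of -1.04 and Fam222a of -0.44. All of these except Cybrd1 and Nkx6-3 had adjusted p between 0.0715 and 0.0906 in edgeR.

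Among the 10 genes of smallest p with higher values in the double knockout, chosen from genes whose groups did not overlap, none passed edgeR. Akr1c14, a hydroxysteroid dehydrogenase, had 816, 1085 and 1018 normalised counts in Cdk8-/- and 2463, 1864 and 1590 in double knockout organoids, 2.03-fold more (adjusted p = 0.0715 in edgeR and 5.65e-06 in DESeq2). Npc1l1, the sterol uptake transporter of the brush border, had 3731, 3952 and 4866 against 9180, 6385 and 7423, and Abcb1a, the efflux pump P-glycoprotein, 2210, 2207 and 2922 against 4040, 3599 and 4632. The carboxylesterase Ces1d, the urate transporter Slc2a9, Slc10a5, the peroxisomal acyltransferase Crot, Ypel2 and Pcnx had log2 fold changes of 0.93, 0.80, 0.70, 0.51, 0.60 and 0.45. Adjusted p over these genes ran from 0.0715 to 0.122 in edgeR, and all of them passed DESeq2. Sult1b1, a sulfotransferase for phenols and thyroid hormones, was at 2182, 1887 and 2355 against 3522, 3313 and 2984 (adjusted p = 0.0842, edgeR). With Cdk8 present it was at 2036, 2158 and 2139 in WT and at 1491, 1265 and 1572 in Cdk19-/- organoids (adjusted p = 0.11, edgeR). The difference between the contrasts without and with Cdk8 was 1.16 ± 0.15 SE (adjusted p = 0.0241, edgeR interaction term).

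**Figure D3:**
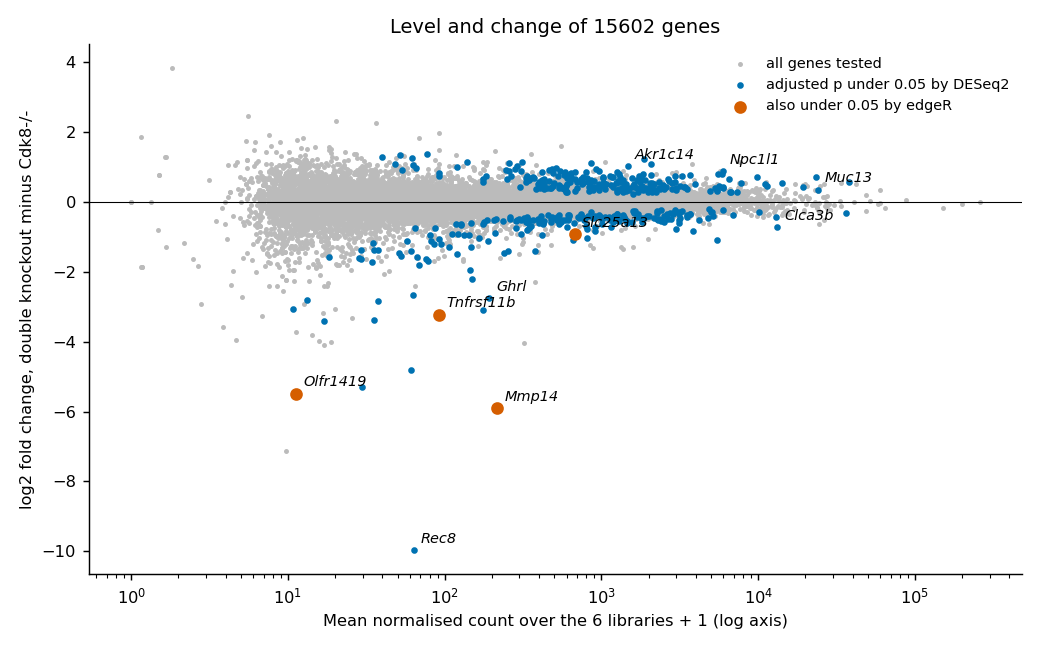
Mean normalised count over the 6 libraries + 1 (x, log axis) against log2 fold change, double knockout minus Cdk8-/- (y), for 15602 genes; blue points passed DESeq2 (407) and orange points edgeR as well (4). The reduced genes reach further from 0 than the increased ones among genes called.

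Enterocyte genes were higher in the double knockout. Of 40 genes, 38 had a positive log2 fold change, with a median of 0.47 against -0.01 for all genes. The groups did not overlap in 16, all higher, against 7.76% of all genes. None passed edgeR and 8 passed DESeq2, all higher, against 1.52% of all genes, among them Mep1a, Dpp4, Cdhr5, Apob, Sis, Slc6a19 and Fabp2. Mep1a, encoding the brush border protease meprin alpha, had 721, 792 and 1854 normalised counts in Cdk8-/- and 3059, 2400 and 2404 in double knockout organoids (adjusted p = 0.141 in edgeR and 0.00592 in DESeq2). Dpp4, a brush border dipeptidyl peptidase, had 2786, 3014 and 3928 against 4899, 3990 and 5087. In both genes Cdk8-/- replicate 3 was the library nearest to the double knockout. Leaving out that library gave 7 higher members in edgeR and 14 in DESeq2, against 2.07% and 4.73% of all genes called higher. Without double knockout replicate 3 the list median was 0.54, and 3 members passed DESeq2, all higher (1.18% of all genes in that fit). Without double knockout replicate 1, whose median centred log2 level was 0.87 against 0.44 and 0.38 in the others, the list median was 0.31. In Cdk19-/- against WT organoids, which share no library with this comparison, the median of the list was -0.51.

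Detoxification genes had a median of 0.32 over 32 genes, with 7 non-overlapping higher and 1 lower, against 7.76% and 8.04% of all genes. The median was 0.21 without double knockout replicate 1. Ugt1a1, which conjugates bilirubin, had 1040, 961 and 1147 normalised counts against 1680, 1338 and 1634 (adjusted p = 0.13 in edgeR and 0.00211 in DESeq2). Among 24 genes of fatty acid oxidation and PPAR targets, 5 were non-overlapping and higher, against 7.76% of all genes, and the median was 0.24. The 30 cholesterol and fatty acid synthesis genes had a median of 0.16 and no member without overlap. That median turned to -0.16 without double knockout replicate 1 and was 0.45 without Cdk8-/- replicate 2.

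Amino acid transporters went in both directions. Of 24 genes, 3 were higher and 2 lower in DESeq2, against 1.52% and 1.44% of all genes, and none was called in edgeR. DESeq2 called 1 higher and 1 lower without double knockout replicate 3, against 1.18% and 0.852% of all genes. Slc7a5, the light chain of the LAT1 exchanger for large neutral amino acids, had 1296, 1180 and 941 normalised counts in Cdk8-/- and 689, 803 and 582 in double knockout organoids (adjusted p = 0.0906, edgeR). Slc7a8, the light chain of LAT2, had 1294, 1184 and 1493 against 3827, 1691 and 2956, and their shared heavy chain Slc3a2 2601, 2144 and 2645 against 3273, 2895 and 3395. The glutamine transporter Slc1a5 lay lower, at 3121, 3082 and 2561 against 2116, 2434 and 2359. The groups overlapped in none of these 4 genes, and Slc7a5 and Slc7a8 had adjusted p of 0.000436 and 0.00692 in DESeq2.

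Tuft cell genes had the lowest median of the 31 lists, -0.93 over 18 genes, and all 18 were below 0. In 10 the double knockout libraries lay below every Cdk8-/- library, against 8.04% of all genes. None passed edgeR, and Alox5, Dclk1, Spib, Pou2f3, Fyb and Trpm5 passed DESeq2, against 1.44% of all genes called lower. Dclk1, the kinase used as tuft cell marker, had 463, 375 and 212 normalised counts in Cdk8-/- and 63.2, 141 and 180 in double knockout organoids (adjusted p = 0.141 in edgeR and 0.00418 in DESeq2). Alox5, which starts leukotriene synthesis, had 138, 94.9 and 109 against 16.3, 32.5 and 60.2. The double knockout libraries differed among themselves: the median centred log2 level was -1.09 in replicate 1, -0.48 in replicate 2 and 0.01 in replicate 3, against 0.36 to 0.80 in Cdk8-/-. Without replicate 3 the median was -1.18 and 10 members passed DESeq2, all lower (0.852% of all genes in that fit). In Cdk19-/- against WT organoids the median of the list was -0.42, the same direction. In RNA from whole organoids, fewer cells of a type and less RNA per cell cannot be told apart.

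Of the enteroendocrine genes, some hormone genes were lower. The median was -0.33 over 25 genes, 6 were lower without overlap, against 8.04% of all genes, and Ghrl, Nts and Sct passed DESeq2, against 1.44% called lower. The median was -0.55 without Cdk8-/- replicate 2, -0.02 without double knockout replicate 1 and -0.87 without replicate 2, whose median centred log2 level of 0.41 lay within the Cdk8-/- range of 0.11 to 0.93. The number passing DESeq2 was 2 without double knockout replicate 3, against 0.852% of all genes called lower. Nts, encoding neurotensin, had 267, 128 and 290 normalised counts against 63.2, 65 and 50.5. The transcription factor genes Rfx6 and Pax4 had log2 fold changes of 0.02 and 0.28 and were not called, and that of Rfx6 changed sign with single libraries. Goblet cell and mucus genes had a median of -0.22 over 22 genes, 5 of them lower without overlap, against 8.04% of all genes. The median was -0.14 and -0.40 without double knockout replicates 1 and 2 and -0.11 without the replicate 3 of either group, and no member passed DESeq2 without double knockout replicate 3. Foxa3, a secretory lineage factor, was at 583, 687 and 550 against 388, 502 and 385, and the chemokine gene Ccl9 at 643, 721 and 259 against 227, 213 and 176. The gel-forming mucin gene Muc2 was at 4277, 4088 and 5144 against 4790, 5237 and 7487 (adjusted p = 0.292, edgeR). The protein disulfide isomerase gene Agr2 had a log2 fold change of -0.37 and the core enzyme gene Gcnt4 of 0.56, neither called. Of 17 Paneth cell genes none was called in edgeR or DESeq2, the median of -0.21 was -0.07 without Cdk8-/- replicate 1, 0.02, -0.38 and -0.33 without double knockout replicates 1 to 3, and Lyz1, encoding lysozyme, was at 22658, 20087 and 18068 against 13867, 29700 and 22586.

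Of 6 tested membrane-bound mucins, none passed edgeR and 2 passed DESeq2, both higher, against 1.52% of all genes. None passed DESeq2 without double knockout replicate 3, and the list median was then 0.17, against 0.30 with it. Muc3 had 720, 1046 and 1061 normalised counts in Cdk8-/- and 1916, 1178 and 1809 in double knockout organoids (adjusted p = 0.141 in edgeR and 0.0114 in DESeq2). Muc13 had 20348, 18844 and 24168 against 26110, 28028 and 26604 (log2 fold change 0.35 ± 0.11 SE, adjusted p = 0.197 in edgeR and 0.0499 in DESeq2). Both were without overlap. Cftr, the chloride channel of the crypt, was not called, at 2521, 2815 and 1764 normalised counts in Cdk8-/- and 2117, 1949 and 2091 in double knockout organoids (log2 fold change -0.21 ± 0.20 SE, adjusted p = 0.663, edgeR). The double knockout libraries lay within the range of the Cdk8-/- libraries. Among 24 genes of chloride and bicarbonate secretion, none was called in edgeR or DESeq2, and the median was 0.19, or 0.11 and 0.07 without double knockout replicates 1 and 2. The apical anion exchanger gene Slc26a3 had 1474, 2158 and 1850 against 3812, 2099 and 2236.

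**Figure D4:**
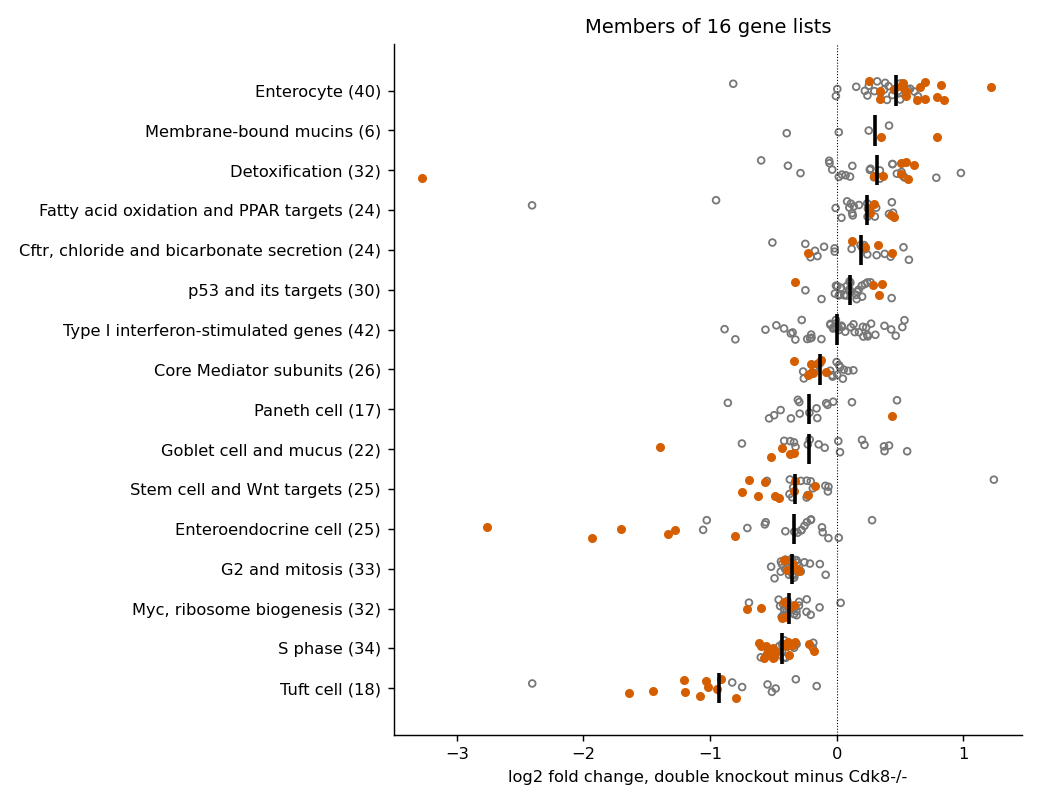
Log2 fold change (x, double knockout minus Cdk8-/-) of every tested member of 16 gene lists (y, number tested in brackets); filled points mark genes whose groups did not overlap and black bars the list medians, which run from -0.93 (tuft cell) to 0.47 (enterocyte). All 34 S phase genes lie left of 0 and 38 of 40 enterocyte genes right of it.

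DNA replication genes were lower in the double knockout as a group. All 34 S phase genes had a negative log2 fold change, with a median of -0.43 and the middle of the list between -0.51 and -0.36. In 20 of them every double knockout library lay below every Cdk8-/- library, against 8.04% of all genes. None passed edgeR, and 15 passed DESeq2, against 1.44% of all genes called lower. Uhrf1, which maintains DNA methylation at replication forks, had 1547, 1512 and 1250 normalised counts in Cdk8-/- and 1084, 988 and 878 in double knockout organoids (adjusted p = 0.119 in edgeR and 0.00211 in DESeq2). E2f1, the transcription factor that drives S phase genes, had 406, 444 and 338 against 269, 298 and 228. The helicase subunit genes Mcm6 (4208, 3866 and 2975 against 2364, 2893 and 2433) and Mcm7 (3154, 2998 and 2259 against 1935, 2170 and 1818) and the chromatin assembly factor gene Chaf1a (1027, 950 and 760 against 690, 635 and 595) were without overlap as well. In all 5 genes Cdk8-/- replicate 3 was the lowest of its group and nearest to the double knockout.

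The dependence on that library was strong. Without Cdk8-/- replicate 3 the S phase median was -0.57 and 21 members passed edgeR, against 3.22% of all genes called lower in that fit, and without double knockout replicate 3 it was -0.36 and 2 members passed DESeq2, against 0.852% called lower. The direction of the median was the same in both. In Cdk19-/- against WT organoids the median of the list was -0.06.

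Replication genes are known targets of E2F factors, so a share of E2F words in their promoters above that of all genes does not bear on this comparison. Their promoters were read as a description only. The RefSeq promoter table for GRCm38.p6 held 26 of the 34 genes. The words TTCCCGC and TTGGCGC, which match the core of the E2F motif, were searched on both strands in the 250 bases before each start. At least 1 of them was found in 10 of the 26 (38.5%), against 6.45% of 27025 genes with a promoter in the table and 14.3% of 28 G2 and mitosis genes. A match of letters is a description and not evidence of binding. The 150 bases before the start are printed for the 4 S phase genes of smallest p that carried a word there and whose groups did not overlap, a choice made after their values were seen, with the words in capitals. Uhrf1 (chr17:56303187-56303336, + strand) and Chaf1a (chr17:56040266-56040415, + strand) held TTCCCGC, as did Mcm7 (chr5:138171267-138171416, - strand), and Mcm6 (chr1:128359706-128359855, - strand) held TTGGCGC at 2 places:
Uhrf1: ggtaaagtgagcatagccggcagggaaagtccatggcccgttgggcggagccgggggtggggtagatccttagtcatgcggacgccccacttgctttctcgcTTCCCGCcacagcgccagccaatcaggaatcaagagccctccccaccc
Chaf1a: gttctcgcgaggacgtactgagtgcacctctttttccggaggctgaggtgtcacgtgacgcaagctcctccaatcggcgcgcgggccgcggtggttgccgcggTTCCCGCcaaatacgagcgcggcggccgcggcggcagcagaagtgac
Mcm7: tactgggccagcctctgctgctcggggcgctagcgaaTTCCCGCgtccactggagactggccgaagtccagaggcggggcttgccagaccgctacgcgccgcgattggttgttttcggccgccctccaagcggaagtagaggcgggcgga
Mcm6: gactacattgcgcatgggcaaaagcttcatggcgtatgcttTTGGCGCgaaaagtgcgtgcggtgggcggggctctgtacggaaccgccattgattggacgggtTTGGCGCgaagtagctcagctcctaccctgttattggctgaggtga

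Mitotic and growth genes lay mostly below 0, and the level of Cdk8-/- replicate 3 lay within the double knockout range in both lists. All 33 G2 and mitosis genes were below 0, with a median of -0.35, 7 without overlap, against 8.04% of all genes, and none called in edgeR or DESeq2. The mitotic cyclin gene Ccnb1 had 515, 566 and 364 normalised counts in Cdk8-/- and 340, 370 and 299 in double knockout organoids, and the phosphatase gene Cdc25b 1399, 1230 and 950 against 954, 893 and 859. Ccna2, Ccnb2 and Ccne2 had log2 fold changes of -0.38, -0.33 and -0.43 with overlapping groups. Of 32 Myc and ribosome biogenesis genes, 31 were below 0, the median was -0.37 and 7 were lower without overlap, against 8.04% of all genes. Mycl, Myc, Ppan and Wdr43 passed DESeq2, against 1.44% called lower. Myc had 4448, 3893 and 3002 against 2248, 2736 and 2493, and its relative Mycl 1571, 1474 and 1263 against 856, 1090 and 691. Without Cdk8-/- replicate 3, 17 members of each of these 2 lists passed edgeR, against 3.22%. No member of either passed edgeR without double knockout replicate 3, and 0 and 2 passed DESeq2, against 0.852% called lower. Ribosomal protein genes took 1.17% to 1.41% of counts in Cdk8-/- and 1.01% to 1.15% in double knockout libraries, and the part of this difference in the results was not tested.

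Of 25 stem cell and Wnt target genes, 24 were below 0, the median was -0.33, and 10 were lower without overlap, against 8.04% of all genes. Axin2, Ascl2, Cdca7, Sox9 and Ephb2 passed DESeq2, against 1.44% called lower, and none passed edgeR. Axin2, the feedback inhibitor of Wnt signalling, had 3784, 3934 and 3276 normalised counts in Cdk8-/- and 2463, 2670 and 2891 in double knockout organoids. Ascl2, the transcription factor of crypt stem cells, had 1116, 1061 and 763 against 576, 719 and 521. The stem cell marker Olfm4 was at 26745, 39400 and 23182 against 21002, 20378 and 16712 (adjusted p = 0.228, edgeR). The gene of the R-spondin receptor Lgr5 overlapped between groups, at 3171, 3952 and 2608 against 2330, 2251 and 2952. Without double knockout replicate 3 the list median was -0.34 and 3 members passed DESeq2, against 0.852% of all genes called lower in that fit, and without double knockout replicate 1 the median was -0.22. Leaving out Cdk8-/- replicate 3 gave 8 lower members in edgeR and 11 in DESeq2, against 3.22% and 5.31% of all genes called lower. In Cdk19-/- against WT organoids the median was 0.22.

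**Figure D5:**
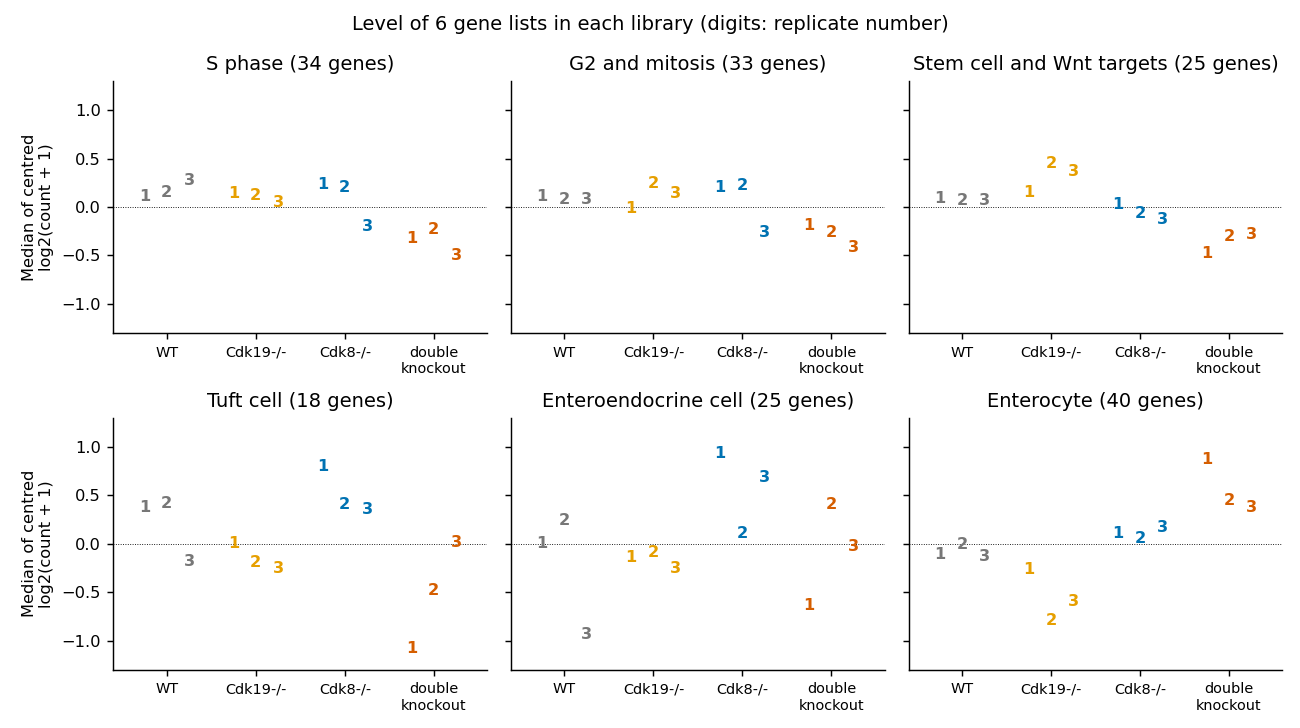
Median over the members of 6 gene lists of log2(normalised count + 1), each gene centred on its mean over 12 libraries (y), in each library by genotype; digits are replicate numbers. For S phase, G2 and mitosis, Cdk8-/- replicate 3 sits with the double knockout libraries, and for tuft cell genes double knockout replicate 3 (0.01) sits nearest to the Cdk8-/- range of 0.36 to 0.80.

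Notch pathway genes had a median of -0.08 over 14 genes, which was -0.15 without Cdk8-/- replicate 2 and -0.05 and -0.03 without double knockout replicates 1 and 2. The ligand gene Dll4 passed DESeq2 (adjusted p = 0.0326) as the only member, against 1.44% of all genes lower, though not without double knockout replicate 3, at 383, 386 and 312 normalised counts against 202, 298 and 251, while the receptor gene Notch1 (log2 fold change -0.19) and the target gene Hes1 (0.14) were not called. Genes of regenerating epithelium and YAP targets had a median of -0.18 over 19 genes. Clu, the marker of revival stem cells, had 10494, 5875 and 6039 against 2193, 4029 and 4284, and passed DESeq2 (adjusted p = 0.00469) and limma-voom (adjusted p = 0.0306) but not edgeR (adjusted p = 0.141). The list median ran from -0.35 to 0.06 over the 6 fits that left out a library, above 0 without double knockout replicate 1 and without Cdk8-/- replicate 3. Of 30 p53 pathway genes the median was 0.10, and it was 0.22 and 0.05 without double knockout replicates 1 and 2 and 0.17 without Cdk8-/- replicate 3. Trp53 itself lay lower (4509, 4027 and 3773 against 2995, 3411 and 3373) and its target Ccng1 higher (5477, 6014 and 6333 against 6733, 7674 and 7400), both passing DESeq2 and limma-voom but not edgeR. They were the only DESeq2 calls of the list, against 1.52% of all genes higher and 1.44% lower, and the list had none without double knockout replicate 3, against 1.18% and 0.852%. Cdkn1a, encoding p21, had a log2 fold change of 0.36 (adjusted p = 0.227, edgeR).

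Interferon-stimulated genes had no member without overlap among 42, and their median was 0.01. Without Cdk8-/- replicate 3 the median was 0.68, and without Cdk8-/- replicate 2 it was -0.26. Cdk8-/- replicate 3 held the highest level of the list in its group (median centred log2 level 0.84, against -0.17 and -0.66 in replicates 1 and 2). In Cdk19-/- against WT organoids the median log2 fold change of the list was 1.69. The Cdk19-/- libraries differed among themselves, with levels of 1.83, 0.77 and -0.21. Of 16 antigen presentation genes, 1 passed DESeq2, against 1.52% of all genes called higher: H2-T3, a nonclassical MHC class I gene, at 294, 288 and 552 against 766, 582 and 757 normalised counts, but not without double knockout replicate 3. Median log2 fold changes were -0.01 for NF-kB targets, -0.06 for immediate early genes, -0.02 for basement membrane and adhesion genes, -0.07 for unfolded protein and integrated stress response genes, -0.03 for glycolysis and hypoxia genes and -0.02 for intestinal transcription factors, without a call in edgeR or DESeq2 on all libraries. Each of these 6 medians changed sign in at least 1 of the 6 fits that left out a library.

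The inhibitor experiment shares no library with this comparison and measured the same genes after hours of SnxB. At 16 h of SnxB, 7.75% of 15467 genes were called, and at 24 h 27.5%. Slc25a13 was lower at both times, with 1909, 1985 and 2134 normalised counts in DMSO and 1642, 1564 and 1582 in SnxB at 16 h (log2 fold change -0.33 ± 0.06 SE, adjusted p = 0.00429, edgeR) and a log2 fold change of -0.30 at 24 h (adjusted p = 0.00284). Mmp14 was not called at either time, at 1273, 1414 and 1365 in DMSO and 1189, 1071 and 1233 in SnxB at 16 h (adjusted p = 0.0738). Tnfrsf11b had at most 12.4 normalised counts in DMSO and 18.3 in SnxB and was not called. Olfr1419 was below the filter there. Abcb1a and Muc13 were higher with SnxB at both times, by log2 fold changes of 0.95 and 0.53 at 16 h (adjusted p = 0.000203 and 0.000202, edgeR). Other genes went the opposite way. Of the 20 genes of smallest p that edgeR did not call between the genotypes, 10 in each direction with at least 50 mean counts and no overlap, 19 were tested here. At 16 h, 7 of the 19 were called, Abcb1a, Npc1l1 and Fam222a with the sign of the genotype comparison and Slc2a9, Slc10a5, Slit2 and Marcksl1 with the opposite sign, and at 24 h 3 had the same and 7 the opposite sign. Slc2a9 and Slc10a5 were lower with SnxB at 16 h, by log2 fold changes of -0.65 and -0.83 (adjusted p = 0.00273 and 0.00698, edgeR). Mep1a was lower as well (-0.80, adjusted p = 0.000874, edgeR), and Clu higher (0.72, adjusted p = 0.000973, edgeR). For Akr1c14 the value at 16 h was 0.06 (adjusted p = 0.729). S phase genes had a median of -0.02 at 16 h and 0.29 at 24 h, tuft cell genes of 0.38 and 0.72, and enterocyte genes of 0.00 and -0.12.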

How the data were processed

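The authors deposited, per library, counts of reads per gene made with STAR (2.6.0c per the labels) on GRCm38.p6, with FastQC listed as quality check. Each deposited table holds unstranded counts and counts for either strand; the fourth column was taken, gene rows only, and the rows for unmapped, multimapping, ambiguous and featureless reads, together 63.1% to 64.3% of reads in the 6 libraries, were left out. In these libraries that column held a median of 49.7% to 49.8% of the unstranded count of a gene, as reads without strand information give. The unstranded counts served as an alternative.

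Genes were named from GENCODE vM21 by identifier. Counts of the 12 genotype libraries were fitted together, so that all genotypes share the estimate of the spread, with edgeR 4.0.16 in R 4.3.3 (filterByExpr, TMM, quasi-likelihood, genotype as the sole term), and p-values were adjusted by Benjamini-Hochberg over 15602 genes; called means under 0.05. The difference between the Cdk19 contrasts without and with Cdk8 was the interaction contrast of that fit. Normalised counts are counts scaled to the TMM library sizes, and groups without overlap are those where every library of one lies beyond every library of the other. SnxB libraries were fitted apart. Alternatives were DESeq2 1.42.0, limma 3.58.1 (voom with library weights), other filters and scalings, the replicate block, and leaving out libraries. The test scripts were tested on simulated data.

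Named genes were every called gene, the 10 genes of smallest p in each direction whose mean normalised count reached 50 and whose groups did not overlap, kinase module and study genes, up to 2 members a direction of each list by p, and genes past a log2 fold change of 3 in size. Members, gene lists and rules were chosen with earlier results of these data known, so the lists are described by counts and medians and not tested. Replicate libraries differed by more than sampling noise (chi-square per degree of freedom 17.5 to 39.8), so each counted as 1. Intervals cover counting error only. Some items are not reported here.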

Additional observations from a re-analysis of the deposited data

Results flagged for a closer look

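The difference between Cdk19-targeted and untargeted organoids was not the same without and with Cdk8, by edgeR's interaction term, for 3 of the genes described. For Mmp14 the difference was -5.47 ± 0.69 SE on the log2 scale (adjusted p = 0.0241): all 3 double knockout libraries were lower than all 3 Cdk8-/- libraries, while WT and Cdk19-/- libraries overlapped. For Olfr1419 it was -6.29 ± 0.75 SE (adjusted p = 0.0241), with 1 read over the 3 double knockout libraries, so that the fitted size depends on the prior count and is no bound. For Sult1b1 it was 1.16 ± 0.15 SE (adjusted p = 0.0241): Sult1b1 was higher in 3 of 3 double knockout libraries than in Cdk8-/-, and lower in 3 of 3 Cdk19-/- libraries than in WT. Transduction, selection and clonal expansion cannot be told apart from Cdk19 loss in these contrasts, and 1 library of each Cdk19-targeted group had Cdk19 at or above the lowest WT library. The CreERT2 signal was high in Cdk8-/- and double knockout libraries and low in WT and Cdk19-/- libraries. Cdk8 loss therefore cannot be told apart from Cre in the interaction term.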

How the results depend on the processing

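The 4 calls, all lower, were the same genes under DESeq2 size factors and unstranded counts. DESeq2's Wald test called 407 (209 higher, 198 lower), voom with library weights 377 (187 and 190) and no filter on low counts 358 (184 and 174), each including the 4. A minimum of 10 counts in every library left 1 call, Tnfrsf11b; a fit of the 6 libraries alone gave 0, also with the replicate block (1603 and 1779 genes at an unadjusted p under 0.05). With the replicate block in the fit of 12 libraries 1 was called, Mmp14. Deviations from the group mean correlated between same-numbered libraries at r = -0.25, -0.16 and 0.31. The largest value was 0.55, between Cdk8-/- replicate 2 and double knockout replicate 1. No source says what a replicate number shares, and with 3 libraries a side these values cannot decide whether the numbers pair them. Leaving out 1 library gave 3 to 839 calls (0 to 328 higher, 3 to 511 lower), the highest without Cdk8-/- replicate 3; with DESeq2, chosen after seeing the data, the counts were 24, 58 and 1421 without Cdk8-/- replicates 1, 2 and 3 (9, 20 and 669 higher, 15, 38 and 752 lower) and 96, 495 and 277 without those of the double knockout (33, 284 and 161 higher, 63, 211 and 116 lower). Without both replicates 3, also chosen later, 419 were called (189 and 230). The sign turned for the log2 fold change of Cdk8, which ran from -0.19 to 0.0227 over the omissions (0.0278 in DESeq2 without Cdk8-/- replicate 2), and for the log2 fold change of Lyz1, from -0.15 to 0.38 (-0.14 in DESeq2 without double knockout replicate 2). It also turned for the log2 fold change of Rfx6, from 0.02 to -0.0254 under voom, -0.0333 with the replicate block (-0.034 in the 6 libraries alone), -0.0228 with unstranded counts and -0.16 without both replicates 3, with omissions from -0.23 to 0.29 (in DESeq2 -0.0573 without Cdk8-/- replicate 2, and -0.0236 and -0.22 without double knockout replicates 2 and 3). None of the 3 genes was called. The cause was not tested. Depth limited Olfr1419 and Rec8, which had 1 and 0 reads in the double knockout.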
